A study of Homo sapiens and Mus musculus with 20 samples.

Results

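The building blocks of DNA, the deoxynucleoside triphosphates, are made and kept in balance by a small group of enzymes. Messenger RNA of 9 of them was followed in IMR90, a human fetal lung fibroblast line: RRM1, RRM2, RRM2B, TYMS, TK1, DUT, DCK, DTYMK and SAMHD1. They were chosen by gene symbol as the core of the pathway, and all 9 were listed and tested in each of the 3 IMR90 experiments, out of 17554 genes listed in any of them. Bulk RNA-seq was available from 12 libraries in 6 groups of 2. A485, an inhibitor of the acetyltransferase p300, was compared with Control2, MS-275, which blocks histone deacetylases of class I, with Control3, and pyruvate with Control6. Per the study's methods the cells came from ATCC and were grown in DMEM with fetal bovine serum, and the cells given pyruvate were described as senescent. Doses, treatment times and the vehicle of the controls are not in the labels of these libraries. The paper's legends give a dose of each inhibitor for IMR90 staining or immunoblots, but do not state it for the RNA-seq. No allele or transgene is named for any group.

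Ribonucleotide reductase takes ribonucleotides to deoxynucleotides and is the step that sets the supply. Its large subunit, RRM1, holds the active site and pairs with either of the small subunits: RRM2, which dividing cells make in S phase and destroy afterwards, or RRM2B, a p53 target used in cells that are not replicating. Thymidine nucleotides need further steps: DUT removes dUTP and yields dUMP, TYMS methylates dUMP to dTMP with a folate cofactor, TK1 salvages thymidine in S phase, and DTYMK carries dTMP on towards dTTP. DCK salvages deoxycytidine and purine deoxynucleosides, and SAMHD1 works in the other direction by breaking deoxynucleoside triphosphates down. Fibroblasts that leave the cell cycle usually lower the S-phase members of this group.

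Short stretches upstream of the starts are shown because 5 of 8 members, RRM2 and TK1 among them, hold the same letters there. RefSeq promoters (GRCh38.p14) matched 8 of the 9 members, and the 250 bases before the start nearest the canonical transcript were searched on both strands. CCAAT, the letters of a CCAAT box, stood in those 5 (RRM1, RRM2, TK1, DTYMK and SAMHD1) and in 32% of all 34943 promoter windows of that length. In the lines that follow the match is in capitals (ATTGG is CCAAT read from the other strand), and each is printed 5′ to 3′ on the gene's strand.
RRM2, chr2:10122608-10122628, plus strand: aggcgcagCCAATgggaaggg
RRM2, chr2:10122638-10122658, plus strand: tggcacagCCAATgggaaggg
RRM2, chr2:10122665-10122685, plus strand: caccaaagCCAATgggaaggg
RRM1, chr11:4094649-4094669, plus strand: gtccatatCCAATggggccca
TK1, chr17:78187117-78187137, minus strand: gggcgctgATTGGccccatgg
TK1, chr17:78187086-78187106, minus strand: ggctcgtgATTGGccagcacg
SAMHD1, chr20:36951745-36951765, minus strand: gcaggaggCCAATaggctgcc
The 3 RRM2 copies begin 123, 93 and 66 bases before the start and are followed by the same letters. RRM1 is shown for its single match, TK1 for a pair in the reverse orientation, and SAMHD1 because the letters also occur in a member that is not an S-phase gene. DTYMK also had 2 matches. An E2F-type word was searched as TTTCCCGC, TTTGGCGC, TTTCGCGC or TTTGCCGC, which 2.77% of the windows hold, and among the 8 members only TYMS had one. Other words were searched too: GGGCGG, the letters of a GC box, stood in 5 of the 8 members against 42.5% of windows. TTTGAA or TTCGAA stood in 2 members against 14.4%, and TATAAA in 0 against 10.8%. All of these are matches of letters only, and no binding was measured here.

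The 9 genes lie on different chromosomes or far apart on the same one (hg38, GENCODE annotation). RRM1 spans chromosome 11 from 4094707 to 4138932 on the plus strand, and RRM2 chromosome 2 from 10120698 to 10211725, also on the plus strand. DTYMK is on chromosome 2 too, from 241675747 to 241686944 on the minus strand. TYMS covers 657653 to 673578 of chromosome 18, DUT 48331011 to 48343373 of chromosome 15 and DCK 70992538 to 71030914 of chromosome 4, each on the plus strand. RRM2B, TK1 and SAMHD1 are on the minus strands of chromosomes 8 (102204502 to 102238961), 17 (78174091 to 78187233) and 20 (36890229 to 36951893). The counting strand is not stated, so reads of RRM1, TYMS, DUT and SAMHD1 cannot be separated from those of the opposite-strand neighbours RRM1-AS1, TYMSOS and ENOSF1, DUT-AS1 and TLDC2. RRM2 overlaps MIR4261 and a small nucleolar RNA gene on the other strand, and DCK overlaps MOB1B on its own strand.

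Depth ran from 24179065 to 46971227 reads per library, and a member value rests on 67 to 7952 reads. All values are normalised read counts, which are reads per gene divided by the authors' size factor for the library, and they are comparable within an experiment only. Changes are log2 fold changes of value + 1, treated minus control, with the standard error and the limma p adjusted over all genes of the experiment. A call needed an adjusted p below 0.05 and a log2 change larger than 1 in either direction. The labels do not say that the 2 libraries of a group are separate cultures, so the p-values measure only the spread between these libraries. Bulk values cannot separate fewer cells of a type from less RNA per cell. All 10 genes of a fibroblast marker list were listed in each experiment, while PECAM1, CDH5, PTPRC, CD3E, CDH1 and SFTPC, which define endothelial, blood and epithelial cells, were not in any of them. Other genes of those lists were listed, KRT8 and VWF in every experiment, and the summed counts were at most 1812 for the epithelial and 455 for the endothelial list in any library.

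**Figure D1:**
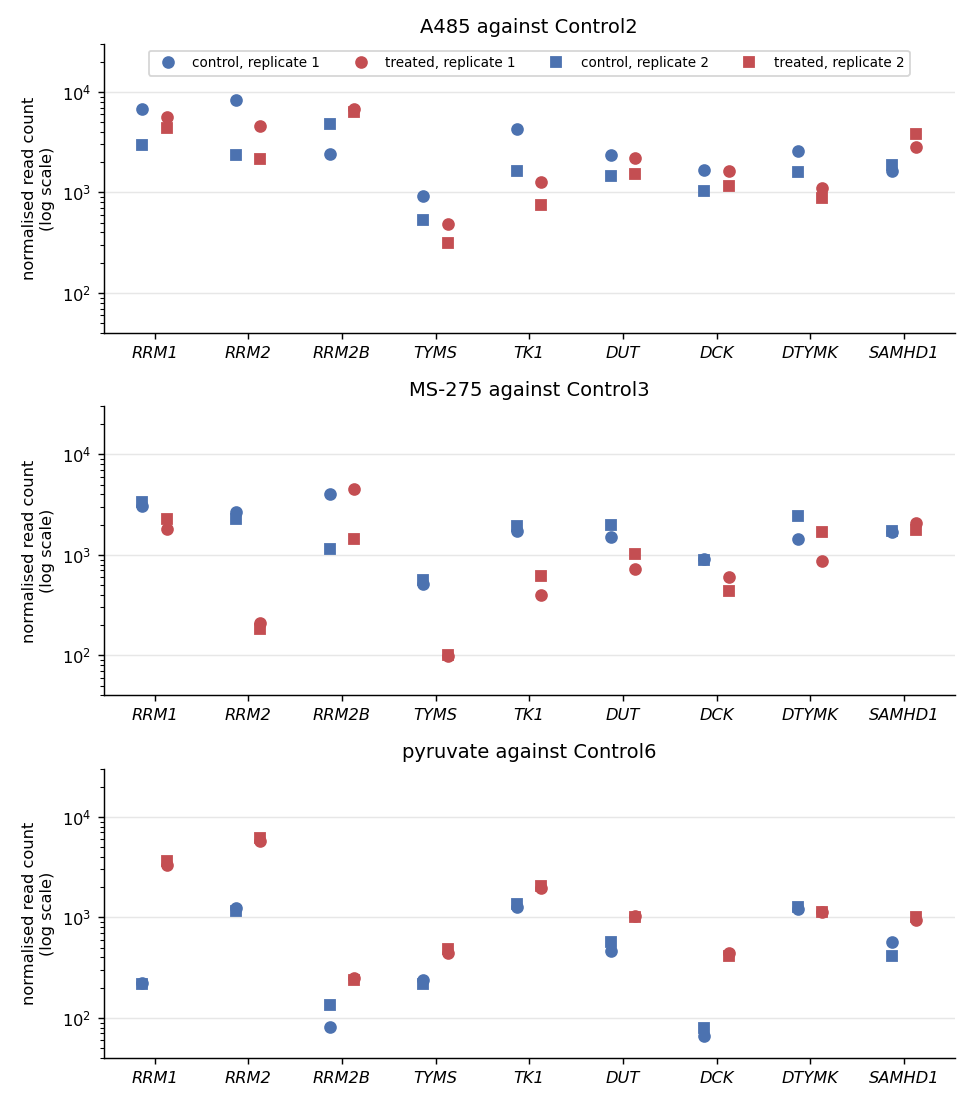
Normalised read count of each of the 9 enzymes (log axis) in every library, with controls in blue, treated libraries in red, replicate 1 as circles and replicate 2 as squares. After MS-275 RRM2 sits at 209 and 184 against 2666 and 2300.18 in control, and after pyruvate RRM1 sits at 3342 and 3676 against 225 and 219.

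In the controls of the MS-275 and pyruvate experiments the kinases DTYMK and TK1 had the highest counts per length of transcript among the members. DTYMK stood at 1381 and 2307 counts per kilobase in Control3 and at 1152 and 1213 in Control6, above every other member in both Control6 libraries and in both Control3 libraries. TK1 came next in those 4 libraries, at 1202 and 1345 in Control3 and at 896 and 958 in Control6. In Control2 the order was not settled: replicate 1 had TK1 at 2962, RRM2 at 2580 and DTYMK at 2486, and replicate 2 had DTYMK at 1519 and TK1 at 1142. RRM1, DCK and RRM2B were lowest in Control6, at 71.6 and 69.8 for RRM1, 26.3 and 31.6 for DCK, and 17.1 and 28.4 for RRM2B. The ranges of DCK and RRM2B overlap. These counts were not corrected for the GC content of the transcripts. It is 58% and 60% for DTYMK and TK1, 43% for RRM1, and 35% for both DCK and RRM2B. The part of base composition in this order was not tested.

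After MS-275 the S-phase members RRM2, TYMS and TK1 had the largest differences from control, all towards lower values, and RRM2B and SAMHD1 had the smallest. RRM2 read 2666 and 2300.18 in Control3 replicates 1 and 2 and 209 and 184 after MS-275. That is a 12.6-fold lower mean, or a log2 change of -3.65 ± 0.32 (adjusted p = 0.142). The 2 replicate numbers gave almost the same size, -3.67 and -3.63, and the groups lay far apart. TYMS, the thymidylate synthase, read 518 and 563 in control and 98.8 and 102 after MS-275, 5.39-fold lower on the means (-2.42 ± 0.34, adjusted p = 0.167). TK1, the salvage kinase, read 1719 and 1924 in control and 404 and 619.8 after MS-275, 3.56-fold lower (-1.86 ± 0.37, adjusted p = 0.239). None of these passed the limma test, and no gene did: 0 of the 9 members and 0 of 15883 genes were called (0.0%), against 4 members and 1730 genes (10.9%) at an unadjusted p under 0.05. Those 4 members were RRM2, TYMS, TK1 and DUT. The call depended on the tool. On the reads recovered from the values, edgeR called 0 members and 0 genes (1703 at an unadjusted p under 0.05, and adjusted p = 0.211 for RRM2). DESeq2 on the same reads called RRM2 (adjusted p = 1.34e-12), TYMS (adjusted p = 5.15e-05) and TK1 (adjusted p = 0.00922) lower, against 1.43% of genes called lower, and 575 genes in all. In 1 limma fit over all 12 IMR90 libraries, which share their spread, the same 3 members were called lower, against 2.23% of genes called lower, among 488 called genes. With any 1 library left out the RRM2 change lay between -3.76 and -3.54.

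The other members differed by less, and mostly in the same direction. DUT, which clears dUTP, read 1511 and 1968 in control and 726 and 1029 after MS-275 (log2 change -0.995 ± 0.36, adjusted p = 0.431). RRM1, the large subunit, read 3041 and 3344 against 1806 and 2289 (-0.65 ± 0.31, adjusted p = 0.585), a smaller difference than that of its partner RRM2. DCK read 921 and 898 against 605 and 437 (-0.82 ± 0.34, adjusted p = 0.504). Control and treated values did not overlap for any of the 6 genes RRM1, RRM2, TYMS, TK1, DUT and DCK, against 19.3% of all genes with both treated libraries below both controls. DTYMK overlapped, at 1451 and 2424 in control and 872 and 1691 after MS-275, although it was lower within each replicate number (-0.73 and -0.52).

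RRM2B and SAMHD1 did not share the low values. RRM2B, the small subunit of resting cells, read 4054 and 1147 in control and 4571 and 1447 after MS-275, so the replicates of a group differed by more than the treatment (log2 change 0.25 ± 0.84, adjusted p = 0.987). Within each number it was slightly higher, by 0.17 and 0.34. SAMHD1, the triphosphohydrolase, read 1707 and 1735 in control and 2089 and 1784 after MS-275 (0.17 ± 0.30, adjusted p = 0.956). Counted within replicate numbers, 7 of the 9 members were lower in both pairs, against 40.4% of all genes, and 3 of them, RRM2, TYMS and TK1, by more than 1 in both, against 4.85% of all genes.

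Proliferation markers were lower beside these values. All 10 markers on the list, such as MKI67, TOP2A, CCNA2 and PCNA, were lower within both numbers, as were 40.4% of all genes. Their median log2 change was -2.59 against -0.01 over all genes. With limma and with edgeR 0 were called, and 5 were called lower with DESeq2 and 3 in the fit of all 12 libraries. With any 1 library left out the median of the markers lay between -2.82 and -1.77. Their summed counts ran from 15190.7 to 23127 in control and from 5396 to 5998 after MS-275. MKI67 itself read 4235 and 379.99 in control and 256 and 34.9 after MS-275, so the 2 control libraries differed far more in this marker than in RRM2. The part of proliferation in the enzyme values was not tested. Of the 10 fibroblast markers 0 were called (median -0.13), and with DESeq2 1 was called higher and 1 lower.

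**Figure D2:**
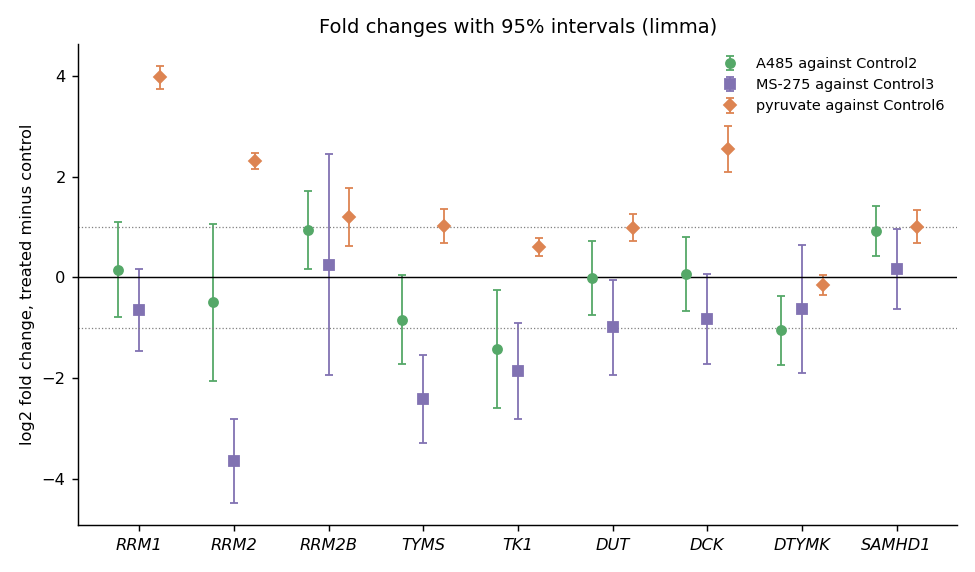
Log2 fold change of each enzyme, treated minus control, in the 3 experiments, with 95% intervals from limma (vertical bars) and dotted lines at the limits of 1 used for calling. MS-275 gives the lowest value for RRM2 at -3.65 and pyruvate the highest for RRM1 at 3.97, while RRM2B and SAMHD1 are above 0 in all 3.

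After A485 no member passed both limits, and the members with the smallest p were SAMHD1, which was higher, DTYMK and TK1, which were lower, and RRM2B, which was higher. SAMHD1 read 1648 and 1856 in Control2 and 2862 and 3805 after A485. It rose by 0.92 ± 0.20 on the log2 scale (adjusted p = 0.0384), just short of the fold limit. In all, 0 of the 9 members were called against 10.4% of 16084 genes (532 higher, 3.31%, and 1135 lower, 7.06%), and SAMHD1 was the single member with an adjusted p under 0.05, against 12.6% of genes. Without adjustment 4 members had a p under 0.05, as did 30.8% of all genes. On the recovered reads edgeR called 0 members and DESeq2 called DTYMK and TK1 lower, against 9.59% of genes called lower. DTYMK read 2612 and 1596 in control and 1099 and 883 after A485 (-1.05 ± 0.28, adjusted p = 0.0619). TK1 read 4239 and 1634 in control and 1271 and 758 after A485 (-1.42 ± 0.48, adjusted p = 0.108). TYMS read 927 and 529.97 against 480.4 and 316 (-0.84 ± 0.36, adjusted p = 0.178). In each of these 3 both A485 libraries lay below both controls, which 30.7% of all genes did as well.

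No subunit of ribonucleotide reductase was called after A485, and the subunits were not tested against each other. RRM2B read 2420 and 4746 in Control2 and 6702 and 6293 after A485, with both treated values above control as for SAMHD1 and 30.4% of all genes (0.94 ± 0.32, adjusted p = 0.110). RRM2 read 8405 and 2338 in control and 4592 and 2146 after A485, a wide overlap (-0.50 ± 0.64, adjusted p = 0.642). RRM1 read 6700.29 and 2940 against 5599.65 and 4349 (0.15 ± 0.39, adjusted p = 0.824). DUT (2343 and 1447 in control, 2190 and 1511 after A485) and DCK (1688 and 1029 in control, 1622 and 1168 after A485) had log2 changes of -0.02 ± 0.30 and 0.06 ± 0.30, well inside the spread of their libraries.

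Control2 replicate 1 stood apart. Its summed proliferation markers were 49220.0 against 16987 in Control2 replicate 2 and 13718 to 17590.4 after A485, and the RRM2 value of 8405 belongs to this library. Without it the RRM2 change was 0.42 in place of -0.50. With Control2 replicate 2 left out RRM2B was called higher, and the RRM1 change was -0.44 in place of 0.15. The 10 proliferation markers had a median change of -1.01 with 0 called, and DESeq2 called 4 of them lower. Without Control2 replicate 1 that median was -0.15, with 4 markers above 0 and 0 called, and without Control2 replicate 2 it was -1.78, with 6 called lower. The part of these markers in the enzyme values was not tested. Of the 10 fibroblast markers 9 were called lower after A485 (3 with either A485 library left out, 6 with either control left out), among them DCN at -4.50 and COL1A1 at -1.81, and their sum was 430004 to 503673 against 1368480 to 1530960 in control. The part of this shift in the enzyme values was not tested. With libraries scaled to the same total the all-gene median was 0.40, 1669 genes were called higher and 915 lower, and RRM2B and SAMHD1 were among the former. With quantile normalisation 751 were higher and 1011 lower, and no member was called.

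Pyruvate gave the largest rises of the 9 genes, led by both main subunits of ribonucleotide reductase and by deoxycytidine kinase. RRM1 read 225 and 219 in Control6 and 3342 and 3676 after pyruvate. It rose 15.8-fold on the means (3.97 ± 0.10, adjusted p = 1.14e-10). RRM2 read 1229 and 1164 in control and 5719 and 6163 after pyruvate, and rose 4.97-fold (2.31 ± 0.08, adjusted p = 4.32e-10). DCK read 65.8 and 79.2 in control and 442 and 415 after pyruvate, and rose 5.91-fold (2.55 ± 0.21, adjusted p = 4.01e-07). RRM2B rose from 81.5 and 136 to 249.7 and 237 (1.20 ± 0.26, adjusted p = 0.00119).

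TYMS, DUT, TK1 and SAMHD1 rose by less. TYMS read 241 and 218 in control and 442 and 487 after pyruvate (1.02 ± 0.15, adjusted p = 8.11e-05). SAMHD1 read 569 and 413 in control and 952 and 1001 after pyruvate (1.01 ± 0.15, adjusted p = 5.87e-05). Both lie just inside the fold limit, and DUT lies just outside it, with 466 and 571 in control, 1028 and 1019 after pyruvate and a rise of 0.99 ± 0.12 (adjusted p = 1.56e-05). TK1 read 1282 and 1370.4 in control and 1979.89 and 2052 after pyruvate, a rise of 0.60 ± 0.08 that passed the p but not the fold limit (adjusted p = 3.55e-05). DTYMK read 1211 and 1275 in control and 1121 and 1119 after pyruvate (-0.15 ± 0.09, adjusted p = 0.143).

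In this experiment most genes passed the test, which is the measure for the members' count. Of the 9 members 6 were called higher and 0 lower, against 31.0% and 23.1% of 12013 genes, or 54.1% in either direction. In all 8 had an adjusted p under 0.05, against 80.9% of genes, and the same number had both treated libraries above both controls, against 45.2%. TYMS and SAMHD1 lost the call without Pyruvate replicate 2 or without Control6 replicate 2, RRM2B lost it without Control6 replicate 1, and DUT gained it without Control6 replicate 2. RRM1, RRM2 and DCK were called with any library left out. On the recovered reads edgeR called DUT as well, and DESeq2 did not call SAMHD1. With equal totals the all-gene median was 0.30, calls numbered 4402 higher and 1741 lower, and DUT was called as well. With quantile normalisation 3143 were called higher and 3228 lower, and of the members RRM1, RRM2 and DCK.

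The fold changes after pyruvate followed the base composition of the transcripts. Over all genes the log2 fold change was lower at higher GC content of the canonical transcript, with a Spearman rho of -0.72 against -0.11 after A485 and -0.02 after MS-275. This is a description over genes of the same 4 libraries. DCK and RRM2B, with large or middling rises, have 35.4% and 35.1% GC, RRM1 and RRM2 42.6% and 42.1%, and DTYMK and TK1, with the smallest changes, 57.9% and 60.3%. With a trend on GC content and length removed from each library, RRM1 rose by 2.72, DCK by 1.28, TYMS by 1.32 and TK1 by 1.77, and these 4 members were called. RRM2 then rose by 0.93 and was no longer called, DTYMK rose by 0.93, and DUT, SAMHD1 and RRM2B were at 0.26, 0.32 and -0.41 and no longer passed the p. RRM1, RRM2, DCK, TYMS and TK1 were therefore higher and passed the p in both versions (RRM2 with adjusted p = 1.11e-05 after removal). RRM2 missed the fold limit with the trend removed, and TK1 missed it as deposited. The order RRM1 above RRM2 also held in both versions, while the direction of RRM2B and DTYMK did not.

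**Figure D3:**
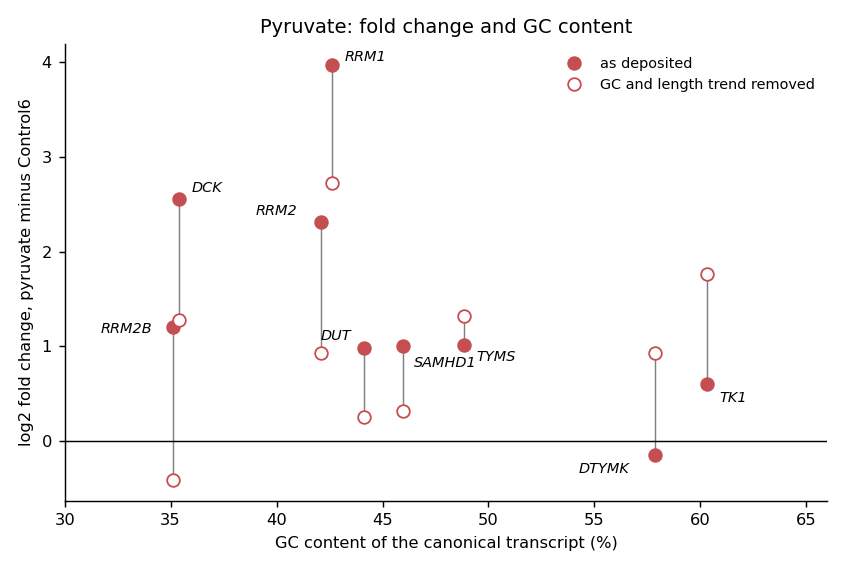
Log2 fold change of each enzyme, pyruvate minus Control6, against the GC content of its canonical transcript in percent, as deposited (filled) and after a trend on GC content and transcript length was removed from each library (open). RRM1 stays highest in both versions, at 3.97 and 2.72, while RRM2B goes from 1.20 to -0.41 and DTYMK from -0.15 to 0.93.

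RRM1 and RRM2 transcripts have nearly the same length (3142 and 3258 bases) and GC content, and their ratio was taken within each library. RRM2 counts per kilobase were 5.27 and 5.12 times those of RRM1 in Control6 and 1.65 and 1.62 times after pyruvate. In Control3 the ratio was 0.846 and 0.663, and after MS-275 it was 0.112 and 0.0777. In Control2 it was 1.21 and 0.767, and after A485 0.791 and 0.476, so these groups overlapped. The RRM2 to RRM1 ratio was thus lower in the treated libraries of the MS-275 and pyruvate experiments, where RRM2 was lower after MS-275 and RRM1 rose more than RRM2 after pyruvate.

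The RRM2B to RRM2 ratio was higher in both MS-275 libraries than in both Control3 libraries. RRM2B counts per kilobase were 1.04 and 0.340 times those of RRM2 in Control3 and 14.9 and 5.36 times after MS-275. After A485 the ratio was 0.996 and 2.00 against 0.196 and 1.39 in Control2. In the pyruvate experiment RRM2B was a minor transcript in every library, at 0.0453 and 0.0795 times RRM2 in control and 0.0298 and 0.0263 times after pyruvate. The 2 transcripts differ in GC content, so this last pair of values shares the limit given above.

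**Figure D4:**
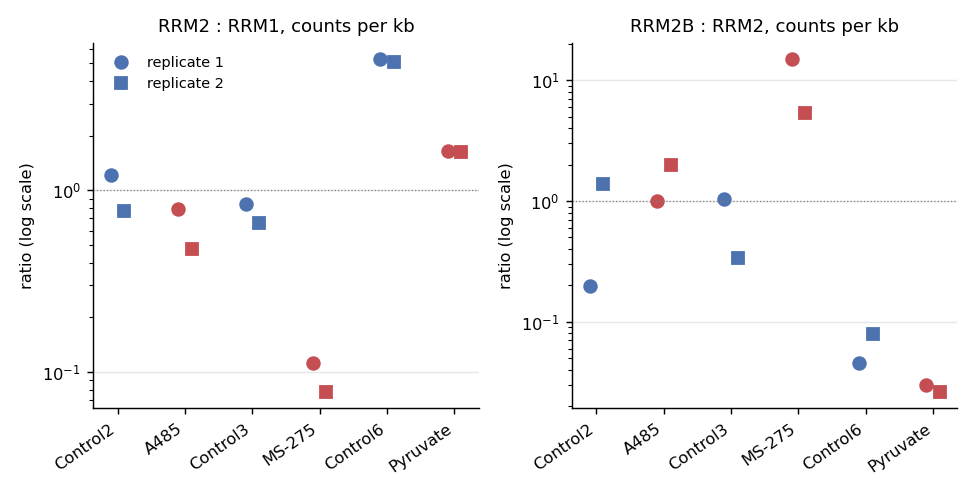
Ratio of counts per kilobase in each library (log axes), RRM2 to RRM1 on the left and RRM2B to RRM2 on the right, for the 6 groups, with controls in blue and treated libraries in red. MS-275 libraries have the lowest RRM2 to RRM1 ratios, at 0.112 and 0.0777, and the highest RRM2B to RRM2 ratios, at 14.9 and 5.36.

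In the test of the difference between treatments most members differed between pyruvate and each inhibitor, and most genes did so between pyruvate and A485. The effect of pyruvate exceeded that of A485 for 7 of the 9 members, against 65.4% of 11993 genes with a difference in either direction, and that of MS-275 for 6 of 9, against 41.1% of 12005 genes. Each test pools 1 spread over 2 experiments whose replicates scattered unequally, so its p-values are approximate. RRM2B and SAMHD1 did not differ past the threshold in either test, with 95% intervals of -0.79 to 1.32 and -0.54 to 0.73 against A485 and of -1.50 to 3.40 and 0.12 to 1.56 against MS-275. With the GC and length trend removed, 5 and 7 members passed, and RRM2 no longer did against A485 (1.50, adjusted p = 0.124). Between A485 and MS-275 no member passed, against 3.81% of 15130 genes. RRM2 was nearest there, with a change 3.15 higher after A485 (95% interval 1.17 to 5.13, adjusted p = 0.102).

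Among the members, RRM2 varied most closely with TYMS, DUT and TK1 over all 12 libraries. Its log2 values, centred on the mean of each experiment, correlated with those of TYMS (Pearson r = 0.963), DUT (0.910) and TK1 (0.844), less with DCK (0.766) and RRM1 (0.668), and little with DTYMK (0.424), SAMHD1 (0.138) and RRM2B (0.0743). Among 11989 genes the 5 most like it were HMGN2 (0.987), RAD54L (0.986), LIX1L (0.983), CENPA (0.981) and CDC25C (0.979). RRM2B was most like SCAMP1 (0.966), FAM8A1 (0.965), UEVLD (0.956), VPS50 (0.956) and STIM2 (0.951), with DTYMK at -0.780 and SAMHD1 at 0.602. These values describe 12 libraries that share treatments and size factors, and carry no test. They were not corrected for GC content, which the fold changes after pyruvate followed and which is 35% for RRM2B and 58% for DTYMK.

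Ribonucleotide reductase is recharged by thioredoxin and glutaredoxin, and a list of 4 such genes had medians of opposite sign under the inhibitors. After A485 all 4 were below 0, with a list median of -1.65 against 0.01 over all genes. Of these, 3 were called lower, against 7.06% of all genes. GSR, glutathione reductase, was at -0.79 (adjusted p = 0.0349) and missed the fold limit. TXNRD1, which reduces thioredoxin, read 83534 and 57332 in control and 11542 and 12375 after A485 (-2.53 ± 0.24, adjusted p = 0.00374). GLRX, a glutaredoxin, fell by 1.81 and TXN, thioredoxin, by 1.48 on the log2 scale. After MS-275 all 4 were above 0 with none called (1 with DESeq2) and a median of 1.09. TXN read 9195 and 17897 in control and 45534 and 69049 after MS-275 (2.13 ± 0.46, adjusted p = 0.251), and GSR was at 1.24 (adjusted p = 0.313). After pyruvate TXNRD1 rose by 1.23, the single call of the list (median 0.46), and by 0.10 with the GC trend removed. With that trend removed the list median was -0.59, with 0 called higher and 1 lower. The lower call was TXN, which went from 0.21 to -1.14.

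The folate cycle feeds TYMS. After A485, 3 of 10 genes were called lower (list median -0.44): MTHFD1L (-2.10, adjusted p = 0.00239), SHMT2 (-1.54, adjusted p = 0.00547) and MTHFD2 (-2.34, adjusted p = 0.00547), all enzymes of the mitochondrial arm. With either A485 library left out, none of the folate or electron donor genes was called, when 117 and 167 genes were called in all. After MS-275, 9 of 10 were lower within both numbers, as were 40.4% of all genes (list median -0.60, 0 called, and 2 lower with DESeq2). MTHFD2 was at -1.65 (adjusted p = 0.278). After pyruvate, 3 of 9 were called higher and 2 lower, against 31.0% and 23.1% of all genes, and 6 were above 0 (median 0.71). MTHFD2 read 470.47 and 447 in control and 6398 and 6141 after pyruvate (3.77 ± 0.08, adjusted p = 4.70e-11), and GGH rose by 1.84. FPGS and the folate carrier SLC19A1 fell by 1.16 and 1.80. With the GC trend removed 3 were called higher and 0 lower, with MTHFD2 at 2.02, GGH at 0.39 and FPGS at 0.11.

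The ribonucleotides that reductase consumes come from de novo purine and pyrimidine synthesis. After A485, 0 of its 17 genes were called (3 lower with DESeq2) and 1 was above 0 (median -0.42), but 7 were above 0 with equal library totals and 4 with quantile normalisation. IMPDH1 and PAICS had the smallest p, at -0.99 (adjusted p = 0.0302) and -0.91 (adjusted p = 0.0472). After MS-275 the median was -0.06 with 0 called, and PFAS (-0.88, adjusted p = 0.520) and CAD (-0.80, adjusted p = 0.654) had the smallest p. After pyruvate 6 were called higher and 1 lower, against 31.0% and 23.1% of all genes, and 11 were above 0 (median 0.34). PAICS, a bifunctional purine enzyme, rose by 3.05, GMPS by 2.46 and ADSS2 by 2.01, and PRPS1 fell by 2.15. With the GC trend removed these 4 were at 1.33, 0.50, 0.48 and -2.31, with 4 calls higher and 2 lower in the list.

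Kinases, breakdown enzymes and transporters complete the pathway. Of 14 nucleotide kinases, 1 was called lower after A485 and 6 were above 0 (list median -0.09). The called gene was NME1 (-1.08, adjusted p = 0.0410), although not with equal library totals or with any 1 library left out. NME4 was at -0.77 (adjusted p = 0.0332), short of the fold limit. After MS-275, 0 of 13 were called (median 0.02), with AK4 at 1.20 and NME2 at -1.22. After pyruvate 2 of 12 were called higher and 5 lower, against 31.0% and 23.1% of all genes, and 4 were above 0 (median -0.63). CMPK1 rose by 1.49 and ADK by 1.66, and among those called lower were NME4 (by 2.17), GUK1 (by 1.94) and AK1 (by 2.19). With the GC trend removed CMPK1 was at -0.10 and ADK at 0.24, and NME4 at -0.94, GUK1 at -0.64 and AK1 at -1.14, with 0 calls higher and 4 lower. NME1 and NME2 are close paralogs, and their reads may be split uncertainly.

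Of 15 genes for breakdown and pool cleaning, NT5E, an ecto-nucleotidase, read 43679 and 23595 in Control2 and 3773 and 4104 after A485 and fell by 3.03 (adjusted p = 0.00431), and NUDT1, which clears oxidised nucleotides, fell by 1.29 (list median -0.14). With either A485 library left out neither was called, and with either control left out 1 was. After MS-275 the median was 0.31 with 0 called, and TYMP was at 1.85. After pyruvate 3 of 14 were called higher and 1 lower (median -0.03), against 31.0% and 23.1% of all genes, and 4 and 0 with the GC trend removed. NUDT5 and NT5C3A rose by 1.40 and 1.12 and ADA fell by 1.25, and with the trend removed they were at 0.00147, -0.35 and -0.20. Of 5 nucleoside transporters SLC28A3 fell after A485, from 108 and 119 to 0 and 7.13 (list median 0.20), and was called with A485 replicate 2 left out but not with any other library left out. After MS-275 (median 0.03, 0 called, and 1 with DESeq2) SLC29A1, an equilibrative transporter, read 573 and 390.1 in control and 2793 and 3442 after MS-275 (2.71 ± 0.36, adjusted p = 0.163), and SLC29A2 was at 0.33. After pyruvate SLC25A36 and SLC28A3 rose by 1.59 and 2.11 and SLC29A2 fell by 2.27 (median -0.65), and with the GC trend removed SLC25A36 was at -0.30, SLC28A3 at 0.64 and SLC29A2 at -1.14.

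Proliferation markers rose with the S-phase members after pyruvate. Of the 10, 7 were called higher with a median of 2.28, against 31.0% of all genes, and 9 with the GC trend removed. MKI67 read 161 and 71.6 in control and 2995 and 2999 after pyruvate (4.79 ± 0.28, adjusted p = 2.38e-08), TOP2A rose by 5.35, CCNA2 by 4.67 and PCNA, the replication clamp, by 2.46. The part of proliferation in the enzyme values was not tested. Of the 10 fibroblast markers 4 were called higher and 1 lower (median -0.02), and 0 and 1 with the GC trend removed.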

How the data were processed

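RNA was sequenced by the study as paired reads from 12 IMR90 libraries, 2 per group. Per the labels and the study's methods, reads were trimmed with Trim Galore (version 0.6.10), aligned to hg38 with HISAT2 (version 2.2.1), handled with SAMtools (version 1.7), counted with featureCounts (version 2.0.6) and normalised with DESeq2 (version 1.34.0). The gene annotation and strand setting are not given in the sources used here. The deposited values are a signal: the authors scaled the reads of each gene by a library's size factor. Every listed gene had at least 10 reads in 2 or more libraries (20 in the pyruvate experiment). Every value was a whole multiple of 1 read, within 0.1 read, and depth is the sum of these reads. Replicates differed beyond sampling noise (chi-square per gene 4.54 to 456). Muscle libraries were not used here.

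Values were tested as log2(value + 1) with limma (version 3.58.1, eBayes with trend, R version 4.3.3) for genes with a mean of at least 10, with no covariate and Benjamini-Hochberg adjustment over all genes tested. A pair of effects was compared as a contrast over 8 libraries. The labels' groups were used throughout. Members, the pathway lists (folate cycle, de novo synthesis, kinases, breakdown, electron donors, transporters), and the lists of proliferation markers, cell cycle regulators, p53 targets and cell type markers were chosen with earlier results of these data known. Named genes were all members, up to 3 calls per direction and pathway list with the smallest adjusted p, or without a call the 2 smallest p, 7 cell cycle and p53 genes, and the 5 genes most correlated with RRM2 and with RRM2B. DCN and COL1A1, and the regulators and p53 targets given beyond those 7, were picked after their values were seen. Some genes that this rule names are not reported here. Alternatives covered pseudocounts of 0.1 and 10, filters, normalisation, the replicate number as a block, fold minimums, a joint fit, leaving out libraries, and count tests on the recovered reads (edgeR, version 4.0.16, and DESeq2, version 1.42.0). Transcript length and GC content came from GENCODE (version 44), and a natural spline on each (5 degrees of freedom) was removed per library. Removing it from the tests between treatments, and the list counts under each alternative, were added after seeing the data. The tests were tested on simulated data. Figures used matplotlib (version 3.10.9).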

Additional observations from a re-analysis of the deposited data

Results flagged for a closer look

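The effects of 2 treatments differed for 13 pairs of a member and a contrast, each by a limma test of the difference over the 8 libraries of both experiments. They were 7 of 9 members for pyruvate against A485, where 65.4% of all genes passed the same test, and 6 of 9 for pyruvate against MS-275, where 41.1% did. Against A485, the log2 change after pyruvate was higher by 3.82 for RRM1, 2.81 for RRM2, 2.49 for DCK, 2.03 for TK1, 1.86 for TYMS, 1.01 for DUT and 0.90 for DTYMK, with adjusted p from 0.000165 to 0.0377. Against MS-275 it was higher by 5.96 for RRM2, 4.62 for RRM1, 3.43 for TYMS, 3.37 for DCK, 2.46 for TK1 and 1.98 for DUT, with adjusted p from 0.000376 to 0.00606. These tests pool 1 spread over 2 experiments whose replicates scattered unequally (chi-square per gene 456 and 397 for MS-275 and Control3, 4.54 and 13.8 for pyruvate and Control6). The standard error of the RRM2 difference was 0.25, below the 0.32 of its MS-275 change alone, so these p-values may be too small. The DTYMK difference from A485 combined a value of -1.05 after A485 with -0.15 after pyruvate, and DTYMK did not pass the threshold in either experiment alone. With the trend on GC content and length removed, the differences from A485 became 2.62 for RRM1, 1.50 for RRM2, 3.16 for TK1 and 0.28 for DUT, and RRM2 and DUT no longer passed. The experiments were normalised apart, so treatment and experiment cannot be told apart beyond what each control removes.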

How the results depend on the processing

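The 3 comparisons were recomputed with other settings, and the causes of the changes given here were not tested. In the A485 experiment 0 members and 1667 genes were called, against 2 members and 2584 genes with equal library totals, 2 members with the replicate block (DTYMK and TK1), 2 with DESeq2, 1 with the GC and length trend removed, 1 with a fold minimum of 0.58 and 1 with none (SAMHD1 in these 3), and 840 genes with eBayes without trend. DESeq2 called 782 genes higher and 1543 lower, and edgeR 542 and 1122. In the MS-275 experiment 0 members and 0 genes became 3 members and 2183 genes with the replicate block (1230 higher and 953 lower), 3 members and 575 genes with DESeq2 (348 higher and 227 lower), and 3 members and 488 genes in 1 fit of all 12 libraries. After pyruvate 6 members became 3 with quantile normalisation, 4 with a pseudocount of 10, 7 with edgeR and 5 with DESeq2, and 6503 genes became 3412 with the trend removed. The A485 and MS-275 effects differed for 0 members, and for 5 with the replicate block. The labels give replicate numbers but do not say whether same-numbered libraries were paired. The deviations of same-numbered libraries correlated at 0.316, 0.728 and 0.002 in the A485, MS-275 and pyruvate experiments, each over 2 pairs. Changes of sign after A485 were DUT at 0.38 (equal totals) and 0.058 (quantile) and DCK at -0.34 (trend removed), and after pyruvate DTYMK at 0.16 (equal totals) and 0.93 and RRM2B at -0.41 (trend removed). Among differences of effects they were DTYMK at 0.11 (A485 minus MS-275, equal totals), RRM2B at -0.61 and SAMHD1 at -0.18 (pyruvate minus A485, quantile), RRM2B at -0.99 and SAMHD1 at -0.69 (the same, trend removed) and RRM2B at -0.68 (pyruvate minus MS-275, trend removed). With 1 library left out at a time, members called ran from 0 to 1 and genes from 117 to 844 after A485, and from 0 to 1 and from 0 to 419 after MS-275, and the A485 and MS-275 effects differed for 0 to 1 members. The same ranges crossed 0 after A485 for RRM1 (-0.44 to 0.75), RRM2 (-1.42 to 0.42), DUT (-0.36 to 0.33) and DCK (-0.29 to 0.42), and after MS-275 for RRM2B (-0.66 to 1.16). For A485 minus MS-275 they did so for RRM2B (-0.23 to 1.59), TK1 (-0.25 to 1.13) and DTYMK (-0.90 to 0.052), for pyruvate minus A485 for RRM2B (-0.22 to 0.75) and SAMHD1 (-0.14 to 0.32), and for pyruvate minus MS-275 for DTYMK (-0.00023 to 0.95). Where this leaves 1 library in a group, it is assumed to vary like the other group. Of the single-gene values recomputed, 761 kept direction and side of the threshold, 40 passed it newly, 32 lost it and 31 changed sign. With 2 libraries a group, moderate changes could be missed.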

Other observations

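Regulators of the S-phase genes were looked at beside the enzymes. Of 12 listed after pyruvate, 7 were called higher and 2 lower (median 1.63), against 31.0% and 23.1% of all genes. With the GC and length trend removed 4 were higher and 0 lower. E2F7, a repressor of the E2F family, rose by 3.33, RBL1 by 2.72 and E2F3 by 2.47, and E2F4 fell by 1.07. With the trend removed E2F7 was at 1.88, RBL1 at 0.80, E2F3 at 1.83 and E2F4 at 0.00073. E2F1, an activator of S-phase genes, read 751 and 712 in Control6 and 519 and 448 after pyruvate (-0.60, adjusted p = 0.000871), and was at 0.53 with the trend removed. After MS-275, E2F1 read 317 and 503 in control and 119 and 139 in treated cells (-1.63, adjusted p = 0.290). In that experiment 11 of 14 regulators were lower within both numbers, as were 40.4% of all genes. The list median was -0.78 with 0 called (1 lower with DESeq2). After A485 0 of 14 were called (median -0.20, and 1 lower with DESeq2) and E2F1 was at 0.32.

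The p53 target list, to which RRM2B belongs by function, had calls in both directions. After A485, AEN was its 1 called gene of 11 (-1.12, median 0.00, and 0 called with any 1 library left out), and after MS-275 0 were called (median -0.05). After pyruvate 5 were called higher and 1 lower (median 0.23), against 31.0% and 23.1% of all genes, and 2 and 0 with the trend removed. CDKN1A, the p21 gene, read 35198 and 36767 in Control6 and 9790.3 and 9869 after pyruvate and fell by 1.87 (adjusted p = 1.67e-10), while MDM2 read 261 and 344 in control and 1106 and 1077 after pyruvate and rose by 1.86 (adjusted p = 2.75e-07). With the trend removed CDKN1A was at -0.84 and MDM2 at -0.15. After MS-275 CDKN1A was at 0.98 and MDM2 at -0.24, and after A485 they were at -0.64 and 0.00, with none of the 4 called.

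Of the other cell type lists, epithelial markers had 1 call higher and 1 lower of 3 listed after A485 and none elsewhere, and endothelial markers 1 call lower after A485 and 1 after pyruvate. The summed counts were at most 1812 for epithelial and 455 for endothelial markers in any library, and no leukocyte marker was called.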
